A study of Mus musculus with 16 samples.

Results

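The 16 arrays of the series, 1 per mouse, were ranked by how much smooth muscle RNA they carried and divided into 8 muscle-rich and 8 muscle-poor colon samples. The ranking value, called the muscle average, was the mean of Actg2 (enteric smooth muscle gamma-actin), Des (desmin) and Myh11 (smooth muscle myosin heavy chain), each on a log2 scale relative to the 75th percentile of its array. The 8 arrays with the highest average formed the muscle-rich side, with all treatment groups mixed, so the arrays were chosen by measured values of these 3 genes. All 16 mice were ApcMin/+, a strain with a truncated allele of the tumour suppressor gene Apc, and the tissue was colon away from visible tumours on day 28. The 4 Sham mice drank plain water. The 6 Control mice drank dextran sulphate sodium (DSS), which injures the colonic epithelium, at 1.5% for 3 days, with saline given into the colorectum for 28 days. The 6 5-ASA mice received the same DSS course with 5-aminosalicylic acid, an anti-inflammatory drug, by the same route; the sample descriptions instead give drinking water with the drug, or water alone for Control, for the 25 days after DSS. A diarrhea score was recorded for each mouse at day 28. Age, sex and the layers of the wall that were dissected are not given in the labels.

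The colon wall consists of a mucosa, where epithelial crypts sit in a connective tissue rich in immune cells and lymphoid follicles, and of an outer muscle coat. In the muscle coat, smooth muscle cells contract by sliding actin along myosin after calcium activates myosin light chain kinase. The nerve cells and glia of the myenteric plexus lie between its circular and longitudinal layers, and the submucosal plexus lies beneath the mucosa. Lymphoid follicles hold B cells and T cells and are scattered along the colon.

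The arrays lay on 2 slides of 8, each with 2 Sham, 3 Control and 3 5-ASA arrays, and in 2 rows. Row 1 held all 4 Sham arrays and Control 1, 2, 4 and 5, and row 2 held all 6 5-ASA arrays and Control 3 and 6, so that 5-ASA and Sham cannot be told apart from row 2 and row 1. Between 53.0% and 65.2% of spots were well above background, with at least 59.8% in every row 1 array and at most 57.7% in every row 2 array. No spot was saturated. The number of arrays limits the precision. The share of spots above background was 59.7 ± 4.36% (SD, n = 8) on the muscle-rich side and 59.9 ± 4.23% (n = 8) on the muscle-poor side, and it did not track the muscle average (Pearson's r = 0.08, permutation p = 0.784).

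The muscle average spanned 2.38 log2 units, or 5.21-fold, from Sham 1 at 5.39 to Control 6 at 3.01. The muscle-rich arrays were Sham 1 (5.39), Control 1 (5.24), 5-ASA 5 (4.91), 5-ASA 4 (4.71), Sham 4 (4.62), 5-ASA 3 (4.57), 5-ASA 1 (4.42) and Control 2 (4.42). The muscle-poor arrays were 5-ASA 6 (4.30), Control 5 (4.25), 5-ASA 2 (4.25), Control 3 (4.22), Sham 2 (4.09), Sham 3 (3.89), Control 4 (3.50) and Control 6 (3.01). Arrays near the boundary were close, since Control 2, the lowest on the muscle-rich side, lay 0.12 above 5-ASA 6, the highest on the other side. Sham 1 and Control 1 stood above the rest, and Control 4 and Control 6 stood below. The mean was 4.79 ± 0.36 (SD, n = 8) on the muscle-rich side and 3.94 ± 0.46 (n = 8) on the muscle-poor side, a difference of 0.85 or 1.80-fold that the ranking itself made. In these bulk samples, fewer cells of a type and less RNA per cell cannot be told apart.

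**Figure D1:**
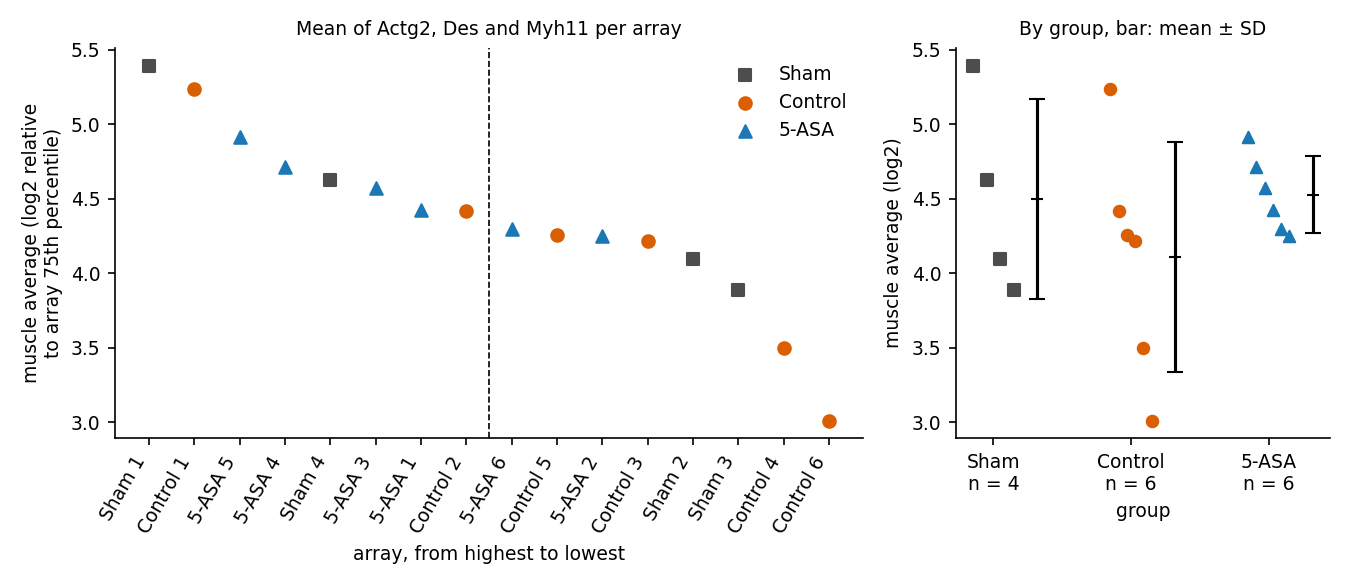
The left panel gives the muscle average of each of the 16 arrays in descending order, in log2 units above the 75th percentile of the array, with the dashed line between the 8 muscle-rich and 8 muscle-poor arrays. The right panel gives the same values by group with mean and SD; the 6 5-ASA arrays lie between 4.25 and 4.91, and the 6 Control arrays between 3.01 and 5.24.

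Actg2 ranged from 6.58 to 7.34 on the muscle-rich side, with a median of 6.75, and from 5.09 to 6.32 on the muscle-poor side, with a median of 6.25. Des ranged from 3.14 to 4.35 with a median of 3.46, against 1.71 to 3.13 with a median of 2.84. Myh11 ranged from 3.48 to 4.52 with a median of 3.80, against 2.23 to 3.54 with a median of 3.35. Actg2 and Des therefore separated the sides, and Myh11, though part of the rule, overlapped, because 5-ASA 6 (3.54) and Control 3 (3.52) exceeded 5-ASA 1 (3.48) and Control 2 (3.48). Each of these genes was read by 1 probe that was well above background on all 16 arrays. The probe positions of the array design are chr6:83462904-83462963 for Actg2, chr1:75363404-75363629 for Des and chr16:14202190-14202249 for Myh11, in mm9. With Actg2 left out of the average, 14 of 16 arrays stayed on their side, and Control 2 and 5-ASA 6 changed places. With Des or Myh11 left out, all 16 stayed. Ranking by the other smooth muscle genes described below in place of these 3 kept 14 arrays on their side and exchanged 5-ASA 1 and 5-ASA 6.

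Many smooth muscle genes carry a CArG box, the sequence that serum response factor binds, in their promoters. The promoter of Des, the only rule gene with an entry in the promoter set used here, is shown together with those of the smooth muscle genes that hold a CArG box. The latter were chosen from the smooth muscle lists by the box alone. Their Pearson's r with the muscle average was 0.98 for Myl9, 0.85 for Srf, 0.81 for Vcl and 0.58 for Ldb3. The sequences are the 250 bases before the annotated start, 5′ to 3′ on the gene's strand, in RefSeq's GRCm38.p6, with CArG boxes in capitals. They lie at chr1:75360042-75360291 (+ strand) for Des, chr2:156775214-156775463 (+) for Myl9, chr14:34588608-34588857 (-) for 1 of the 2 entries of Ldb3, chr17:46556163-46556412 (-) for Srf and chr14:20929148-20929397 (+) for Vcl.
Des: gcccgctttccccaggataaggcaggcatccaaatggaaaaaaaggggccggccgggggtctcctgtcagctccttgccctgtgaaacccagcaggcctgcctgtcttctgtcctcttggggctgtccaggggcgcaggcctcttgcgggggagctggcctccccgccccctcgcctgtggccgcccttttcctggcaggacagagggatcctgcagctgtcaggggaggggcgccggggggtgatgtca
Myl9: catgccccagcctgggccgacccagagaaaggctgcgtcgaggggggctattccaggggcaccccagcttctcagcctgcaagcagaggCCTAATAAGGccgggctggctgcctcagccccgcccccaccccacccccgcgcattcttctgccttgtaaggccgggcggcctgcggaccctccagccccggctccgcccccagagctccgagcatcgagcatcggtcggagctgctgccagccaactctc
Ldb3: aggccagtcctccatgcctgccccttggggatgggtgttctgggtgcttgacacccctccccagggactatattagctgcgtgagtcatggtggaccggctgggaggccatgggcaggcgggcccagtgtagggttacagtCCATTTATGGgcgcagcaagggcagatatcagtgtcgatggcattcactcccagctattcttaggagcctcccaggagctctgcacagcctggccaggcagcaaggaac
Srf: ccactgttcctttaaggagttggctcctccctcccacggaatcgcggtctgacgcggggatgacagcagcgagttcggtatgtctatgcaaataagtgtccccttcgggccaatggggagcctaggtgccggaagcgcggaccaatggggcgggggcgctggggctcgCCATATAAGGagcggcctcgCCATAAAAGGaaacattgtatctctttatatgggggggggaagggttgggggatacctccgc
Vcl: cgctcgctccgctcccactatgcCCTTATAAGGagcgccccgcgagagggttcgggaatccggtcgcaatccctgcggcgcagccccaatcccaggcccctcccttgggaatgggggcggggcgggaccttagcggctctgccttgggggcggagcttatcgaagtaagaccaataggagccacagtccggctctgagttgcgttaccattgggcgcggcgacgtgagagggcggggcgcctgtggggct
The first base of the box lies 161 bases before the start in Myl9, 109 in Ldb3, 227 in Vcl, and 82 and 62 in Srf, which itself encodes serum response factor. The CArG box (searched by its name's consensus, which reads the same on both strands) was found in 4 of the 36 smooth muscle genes with a promoter entry (11.1%) and in 488 of 27025 gene symbols (1.81%), in windows that also take in 50 bases after the start. A match describes the letters alone. The Des window holds none. Myl9 differed between sides by 0.54, Ldb3 by 0.31, Srf by 0.24 and Vcl by 0.19.

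How the groups fell on each side was the comparison that the ranking did not fix. Sham had 2 muscle-rich and 2 muscle-poor mice, Control had 2 and 4, and 5-ASA had 4 and 2. The 4 Sham mice averaged 4.50 ± 0.67 (SD), the 6 Control mice 4.11 ± 0.77 and the 6 5-ASA mice 4.53 ± 0.26. Control mice lay 0.39 below Sham (SE 0.46, difference -0.39), with an exact two-sided permutation p = 0.438 and an adjusted p of 0.657 over the 3 group comparisons. 5-ASA mice lay 0.42 above Control (SE 0.33, exact permutation p = 0.240, adjusted 0.657) and 0.03 above Sham (SE 0.35, exact permutation p = 0.929). With groups of this size the test cannot give a p below 0.00216 (5-ASA and Control) or 0.00476 (comparisons with Sham). None of the 3 differences had an adjusted permutation p under 0.05. The 0.42 between 5-ASA and Control was larger than the SD of the 5-ASA mice (0.26) and smaller than that of the Control mice (0.77). The slides did not give the same order: 5-ASA minus Control was -0.21 on slide 1 (3 against 3 mice) and 1.05 on slide 2, where Control 4 and Control 6 both lay. Slide 1 had 5 muscle-rich and 3 muscle-poor arrays and slide 2 had 3 and 5, with means of 4.58 and 4.15 (exact permutation p = 0.163). Each row had 4 of each side, with means of 4.43 and 4.30 (exact permutation p = 0.690). The 5-ASA mice spanned 0.67 log2 units, Sham mice 1.50 and Control mice 2.22.

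The muscle average was lower in mice with more diarrhea. All 3 mice with a score of 0 (Sham 1, 5-ASA 1 and 5-ASA 5) were on the muscle-rich side, at 4.42, 4.91 and 5.39 in ascending order. The 10 mice with a score of 0.5 were divided 5 and 5, with a median of 4.36. The 2 mice with a score of 1, Control 4 and Control 6, were the lowest arrays of all, at 3.50 and 3.01, and the 1 mouse with a score of 1.5, Control 3, was at 4.22. Over 16 mice, Pearson's r was -0.60 (permutation p = 0.0152, adjusted 0.0305 over the 2 relations computed) and Spearman's rho was -0.69 (permutation p = 0.00249, adjusted 0.00498). Without Control 3, the mouse farthest from the median score of 0.5, and Sham 1, 1 of 5 mice tied for the next place, r was -0.69. Without Control 4 and Control 6, also among those 5, r was -0.44 (permutation p = 0.122) and rho was -0.55 (p = 0.0413), so that Pearson's relation rested on these 2 mice. Permuting within the 3 groups gave p = 0.0423 for r and 0.00468 for rho. Within slide 1 r was -0.44 (n = 8, exact permutation p = 0.286), within slide 2 -0.88 (p = 0.00595), within row 1 -0.78 (exact p = 0.0357) and within row 2 -0.55 (exact p = 0.175). Among the 6 Control mice r was -0.47 (exact permutation p = 0.383) and rho -0.74 (p = 0.133). All mice with a score above 0.5 were Control mice.

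**Figure D2:**
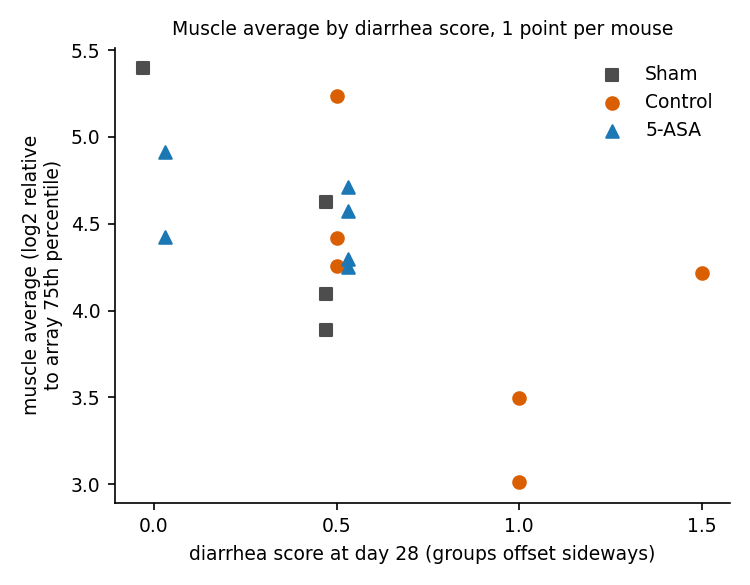
The muscle average (log2 units above the 75th percentile of the array) is plotted against the diarrhea score at day 28, 1 point per mouse, with groups offset sideways. The 3 mice scored 0 lie at or above 4.42, and the 2 mice scored 1 lie at 3.01 and 3.50.

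Across all genes, few separated the sides. Of 24543 genes tested, 2 (0.00815%) did not overlap between sides and were higher by at least 1 log2 unit on the muscle-rich side, and none (0%) did so in the other direction. They were Nags, an enzyme that makes the activator of the urea cycle (difference 1.29), and Jakmip2, a microtubule-binding protein (1.17). Nags was read near the edge of the array, 4 spot rows from it, and Jakmip2 was well above background on 6 of 8 muscle-poor arrays. With no minimum difference, 12 genes (0.0489%) were higher without overlap and none (0%) lower. These were Actg2, Des, the intermediate filament protein Synm (0.90), the actin-binding regulator Cald1 (0.74), the actin crosslinker Flna (0.51), the laminin receptor subunit Itga7 (0.59), the muscle cofilin Cfl2 (0.44), the actin-filament elongation factor Enah (0.86), the small heat shock protein Hspb7 (0.83), the RNA-binding protein Samd4 (0.86), Jakmip2 and Nags. Differences of at least 0.5 in either direction were broader, with 1057 genes (4.31%) higher and 931 (3.79%) lower on the muscle-rich side. At 1 or more, 114 genes (0.464%) were higher and 238 (0.97%) lower. The ranking used these arrays, so all values of the rich-against-poor contrast are given as a description, with no test, and nothing is read from a list's share against these percentages.

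With the 3 rule genes left out, the genes whose values followed the muscle average most closely over the 16 arrays were Popdc2, a cAMP-binding membrane protein of muscle, with Pearson's r of 0.99, and Acta2 (smooth muscle alpha-actin), Flna, Myl9 (the regulatory myosin light chain) and Csrp1 (a LIM-domain protein of smooth muscle), each with r of 0.98. Popdc2 was 1.65 in Sham 1 and 1.27 in Control 1, between 0.46 and 0.95 in the other muscle-rich arrays, and -0.56 in Control 4 and -0.92 in Control 6. The order of its values over the 16 arrays was thus close to that of the average, with Sham 1 highest and Control 6 lowest in both. In all, 279 genes (1.14%) had r of at least 0.9 and none (0%) had r of -0.9 or below. At 0.7, the counts were 1396 (5.69%) and, with negative sign, 310 (1.26%). Of the 43 smooth muscle genes measured, 25 had r of at least 0.9, and of the 40 that were not in the rule, 22. The points share scaling and tissue pieces, so these values carry no p.

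Most smooth muscle genes outside the rule were higher on the muscle-rich side, but not all followed the average. Of the 43 measured of 44 listed, 42 were higher on the muscle-rich side, with a median difference of 0.54, against 0.01 over all genes. Without the 3 rule genes, 39 of 40 were higher with a median of 0.53, and 23 differed by at least 0.5. Of these 40 genes, 30 had r of at least 0.7, and r was 0.21 for Pde5a, 0.16 for Nkx2-3, 0.01 for Tacr2 and -0.36 for Mef2c. The 8 filament genes had a median of 0.76. Synm, which links desmin filaments to the cell edge, had the widest difference of those outside the rule, at 3.36 to 4.32 with a median of 3.47 on the muscle-rich side and 1.61 to 3.26 with a median of 3.03 on the other. Tpm1, a tropomyosin that also serves non-muscle cells, had the smallest, 0.49. The 10 genes that regulate contraction had a median of 0.70, from Cnn1 (calponin, an actin-bound brake on myosin; 0.80) to Ppp1r14a (an inhibitor of myosin phosphatase; 0.28). Cnn1 was 7.04 to 7.86 in muscle-rich arrays and 5.61 to 7.07 in muscle-poor ones, so that 5-ASA 4 (7.04) and 5-ASA 2 (7.07) overlapped. The myosin light chain kinase Mylk differed by 0.76, at 1.96 to 2.87 against 0.76 to 2.12.

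The 6 channel and calcium-store genes measured had a median of 0.52. Pln, phospholamban, which restrains the calcium pump of the sarcoplasmic reticulum, had the widest difference of all smooth muscle genes, 1.40. It was at -0.02 in Sham 1 and -0.23 in Control 1, at -2.07 to -1.04 in the other muscle-rich arrays, at -2.0 to -1.58 in 5 muscle-poor arrays, and at -3.73, -4.02 and -4.04 in Sham 3, Control 4 and Control 6. The 5 arrays at the ends of the ranking were thus set apart, and the arrays between them overlapped. Kcnma1, the large-conductance calcium-activated potassium channel, had the smallest difference, 0.31. The 8 genes that anchor filaments to the membrane had a median of 0.50, from Synpo2 (0.90) to Vcl (vinculin; 0.19). The 6 receptor and cyclic GMP genes had a median of 0.47. Prkg1, the cyclic GMP-dependent kinase that relaxes smooth muscle, differed by 0.62, and the muscarinic receptors Chrm2 and Chrm3 by 0.59 and 0.51. Tacr2, the tachykinin NK2 receptor, differed by 0.03, with 4.13 to 4.57 against 4.05 to 4.53 and r of 0.01. The order of Tacr2 across the 16 arrays had no relation to the muscle average, although its probe was well above background on all of them.

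Transcription factor genes of smooth muscle spread the widest, with 4 of 5 higher and a median of 0.24. Hand1, a factor of gut mesenchyme and visceral muscle, differed by 0.73, with -1.92 to -0.54 against -2.94 to -0.63. Myocd, the co-activator of serum response factor that drives smooth muscle genes, differed by 0.44, and Srf itself by 0.24. Nkx2-3, a homeobox factor of gut mesenchyme and lymphoid vessels, differed by 0.10. Mef2c, which is also a B cell factor, was the 1 gene lower on the muscle-rich side (-0.54, and -0.36 without Control 4 or -0.33 without 5-ASA 1).

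**Figure D3:**
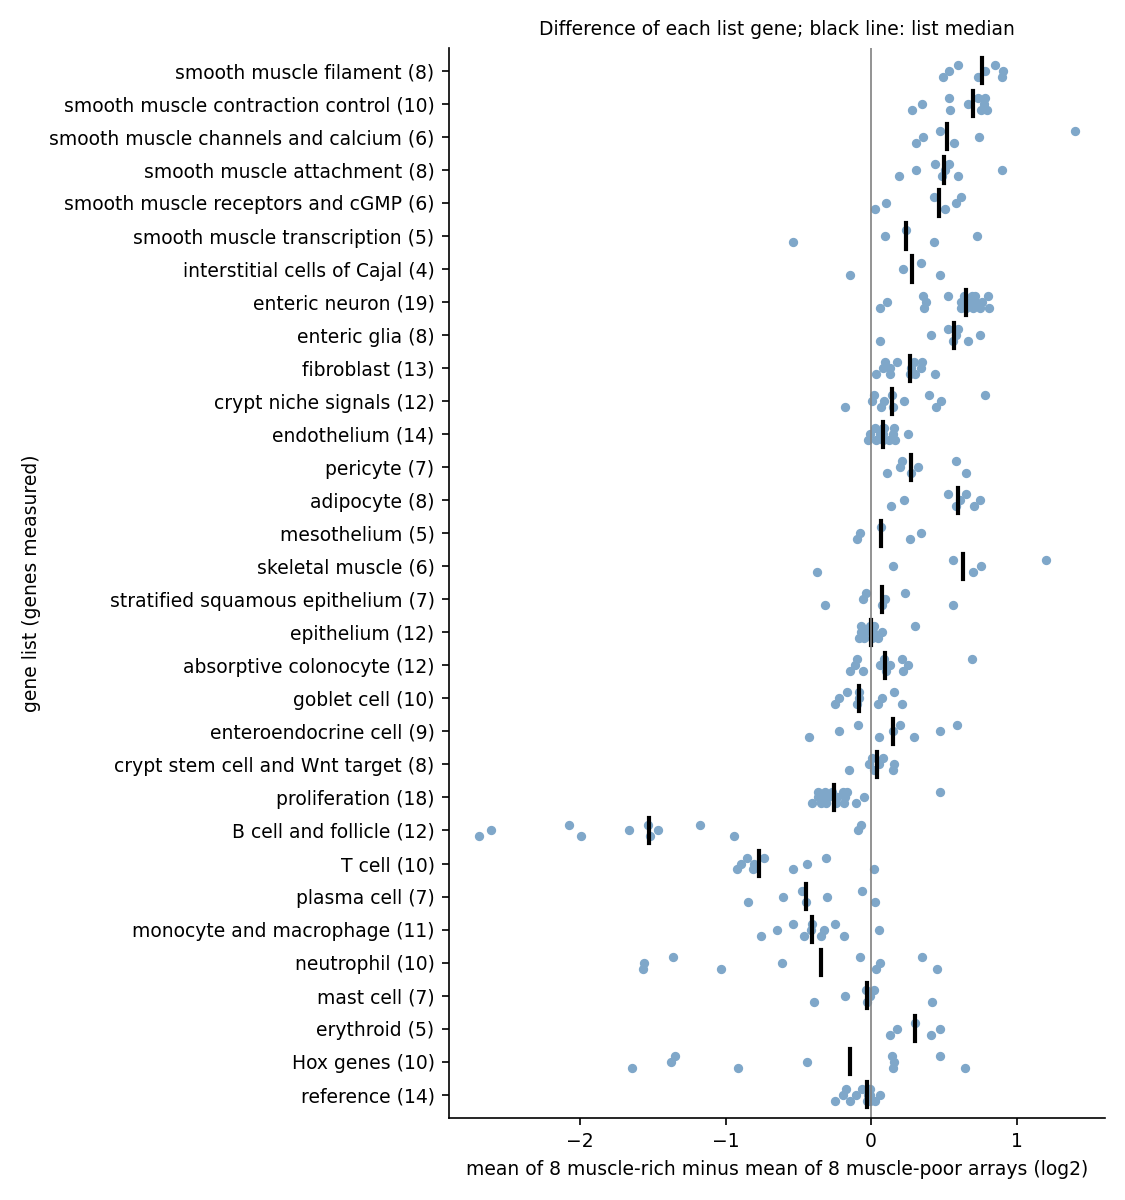
Each point is 1 gene of a list and gives the mean of the 8 muscle-rich minus the mean of the 8 muscle-poor arrays in log2, with the number of genes measured in brackets and a black line at the list median. Smooth muscle, neuron and glia lists lie to the right of 0, the epithelium list at 0, and the B cell list to the left with a median of -1.53.

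Genes of the enteric nervous system were higher with the muscle genes. All 19 neuron genes were higher on the muscle-rich side, with a median of 0.65, and 14 differed by at least 0.5. Gal, which encodes the neuropeptide galanin, had the widest difference, 0.81, with 0.85 to 2.24 against -0.19 to 1.34. Control 4 and Control 6 had the lowest Gal values, at -0.19 and -0.09, and Sham 1 and Control 1 the highest, at 2.24 and 2.15. Stmn3, a tubulin-binding protein of neurons, differed by 0.80 and the light neurofilament gene Nefl by 0.75. Vip, whose peptide relaxes gut muscle, differed by 0.62. Tac1, the gene of substance P, differed by 0.11, and Snap25, a synaptic fusion protein that endocrine cells also make, by 0.06. The 8 glia genes were all higher, with a median of 0.57, led by S100b (0.75) and the cadherin Cdh19 (0.67). The other muscle-coat cells were less uniform. Of 4 genes of interstitial cells of Cajal, the pacemaker cells of the gut, Etv1 differed by 0.48, Prkcq by 0.34 and Kit by 0.22, and Ano1, their calcium-activated chloride channel, by -0.15.

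Connective tissue and vessel genes differed less. The 13 fibroblast genes were all higher on the muscle-rich side with a median of 0.27 and none by 0.5 or more, and the widest difference was 0.44 for the matrix proteoglycan Lum. Their median was 0.10 without Control 3 and 0.13 without Control 4. Of the 12 genes of signals that the mesenchyme sends to the crypts, 11 were higher with a median of 0.15, which was 0.10 without Sham 1, 0.07 without Control 1, 0.09 without Control 4 and 0.41 when the arrays were ranked by the other smooth muscle genes. The bone morphogenetic protein antagonist Grem1, which is made by cells beneath the crypts and in the muscle, differed by 0.44, and the Wnt-enhancing ligand Rspo3 by 0.48. Pericyte genes, 7 of 7 higher, had a median of 0.28, led by Rgs5 (0.65) and Cspg4 (0.59), and the 14 endothelial genes had a median of 0.08.

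Fat, serosa and striated muscle were examined as neighbours of the wall. The 8 adipocyte genes had a median of 0.60, but this rested on single arrays. Adipoq, the fat-cell hormone adiponectin, was lowest in 5-ASA 6 (-6.82, muscle-poor) and Sham 4 (-6.07, muscle-rich), and highest in Sham 3 (1.94, muscle-poor). Without 5-ASA 6 the adipocyte median was 0.00, and without Sham 4 it was 1.18. The 5 mesothelial genes had a median of 0.07. Of 10 striated muscle genes 6 were measured, 5 higher and 1 lower (-0.37), with a median of 0.63. Their median r with the muscle average was 0.40, and 2 had r of at least 0.7. Ckm (muscle creatine kinase) and Acta1 (skeletal alpha-actin) differed by 1.20 and 0.75. Ckm ran nearly in the order of the average, from -1.01 in Sham 1 to -4.47 in Control 6, with r of 0.95. From which muscle this RNA came was not tested. Tnnt3, the fast skeletal troponin T, was well above background on 3 arrays of each side.

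The genes that were lower on the muscle-rich side were led by those of B cells. All 12 B cell and follicle genes were lower, with a median of -1.53, and 10 differed by at least 0.5. Ms4a1, the CD20 antigen of mature B cells, was -5.99 to 1.94 with a median of -3.38 on the muscle-rich side and -4.73 to 2.95 with a median of -0.50 on the muscle-poor side. Its values overlapped over most of their range: Sham 4, a muscle-rich array, was at 1.94, and 5-ASA 2, a muscle-poor array, at -4.73. Cr2, the complement receptor of B cells and follicular dendritic cells, differed by -2.07 and Cxcr5, the chemokine receptor that brings B cells into follicles, by -1.99. Pax5 and Cd22 differed by -0.09 and -0.07. In all Sham mice but Sham 1 and in Control 4, the B cell score, the mean of the list relative to the mean over arrays, was between 1.71 and 2.88, and in Sham 1, Control 1 and the 6 5-ASA mice it was between -1.91 and -0.34. It was 0.24 in Control 6, the array with the least muscle RNA. The B cell genes followed the muscle average less closely than the neuron genes in these arrays, with a median r of -0.58 over the list against 0.88 for neurons.

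T cell genes were lower in 9 of 10 cases with a median of -0.77, led by Zap70, the kinase of the T cell receptor (-0.92). Plasma cell genes were lower in 6 of 7 with a median of -0.45. Mzb1, a chaperone of antibody-secreting cells, differed by -0.85 and had r of -0.82, with -0.19 in Control 1 and 3.03 in Control 4 at its ends; its probe lies in the outermost spot row. Macrophage genes were lower in 10 of 11 with a median of -0.41, led by lysozyme Lyz2 (-0.75) and the complement gene C1qa (-0.65). Of 10 neutrophil genes 6 were lower, with a median of -0.34. That median was -0.19 without Control 4 and 0.050 over genes well above background on all 16 arrays. S100a8 and S100a9, the calprotectin subunits, differed by -1.57 and -1.56. S100a8 was highest in Control 4 (1.20), Control 6 (-0.18) and Control 3 (-0.67), the 3 mice with diarrhea scores above 0.5, and lowest in Control 5 (-4.93), which was also muscle-poor. S100a9 was highest in Control 4 (1.99) and Control 6 (1.38). Ltf was well above background on 1 muscle-rich and 5 muscle-poor arrays, so no size of difference is given for it. At the other end of the list, Mpo (myeloperoxidase) differed by 0.46.

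**Figure D4:**
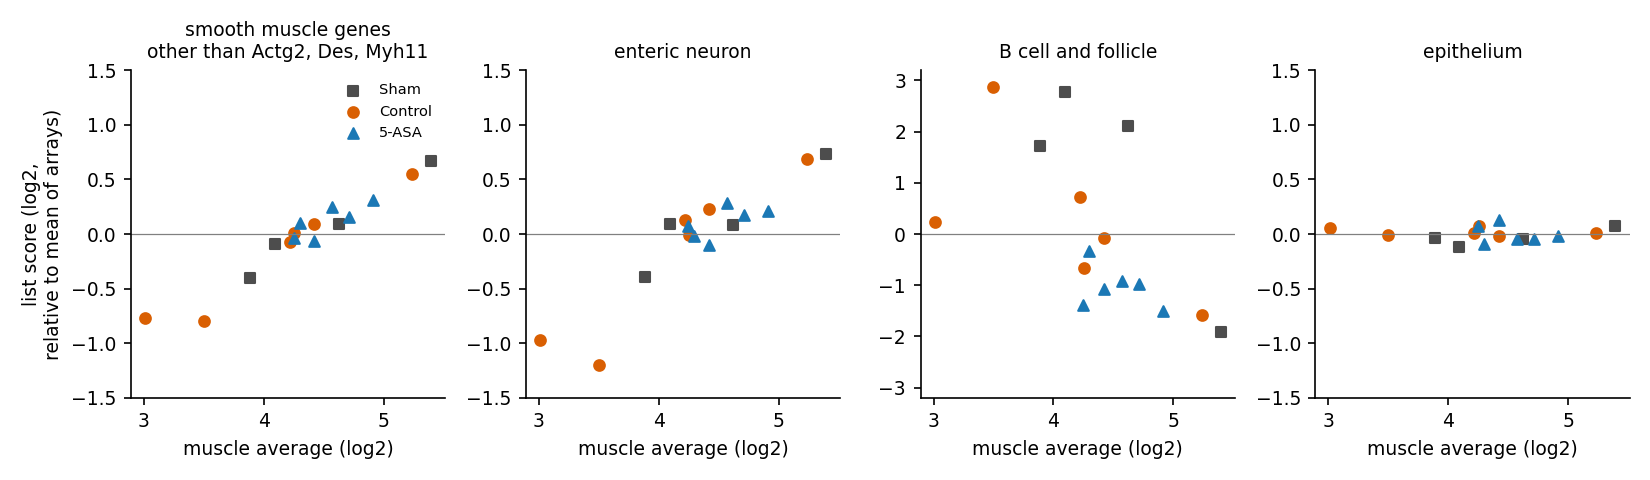
Each panel plots a list score (mean of the list's log2 values relative to the mean over arrays) against the muscle average, 1 point per array; the B cell panel has a wider axis. Smooth muscle and neuron scores climb along the muscle average with Control 4 and Control 6 lowest, the B cell score runs from -1.91 in Sham 1 to 2.88 in Control 4 with scatter between, and the epithelium score stays near 0.

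Epithelial genes did not separate the sides. The 12 pan-epithelial genes had a median of -0.00, 6 higher and 6 lower, and Cdx2, the intestinal homeobox factor, had the widest difference (0.30). Absorptive colonocyte genes had a median of 0.10 (0.03 without Sham 3), goblet cell genes -0.08, enteroendocrine genes 0.15 and crypt stem cell genes 0.04. Fabp2, a fatty acid carrier of absorptive cells, differed by 0.69, with 5.01 to 7.28 against 3.49 to 6.84, its lowest value being in Sham 3, without which the difference was 0.34. Sst (somatostatin), which both endocrine cells and neurons make, differed by 0.59, and Pyy (peptide YY) by -0.42. Of 18 proliferation genes 17 were lower, with a median of -0.25 and none by 0.5 or more, led by Cdc20 (-0.41), the activator of the anaphase-promoting complex, while the mitotic kinase gene Aurkb was higher (0.47). Without Sham 3 or 5-ASA 1 the proliferation median was -0.43 and -0.44 and Aurkb 0.08 and 0.15, and without 5-ASA 2 or 5-ASA 4 they were -0.15 and -0.17, and 0.85 and 0.72. Without Control 3 or Control 6 Aurkb was 0.77 and 0.29. The 14 reference genes had a median of -0.03.

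Of the Hox genes, which pattern the gut along its length, 10 of 12 were measured, 5 higher and 5 lower, with a median of -0.15 that was 0.15 over genes well above background on all 16 arrays. Hoxd13 differed by -0.92 and Hoxa11 by 0.65. Hoxd13 was -5.11 in Sham 1 and -3.52 in Control 1, the arrays with the most muscle RNA, and lay between -2.46 and -0.43 in the other 14. Hoxd12 and Hoxd10 were well above background on 2 muscle-rich and 6 muscle-poor arrays each and Hoxd11 on 4 and 8, so no size of difference is given for them. Outside the lists, and chosen after their values were seen, the widest difference was that of Six2, a homeobox factor of mesenchyme (2.37), which was 1.26 in Sham 1, 0.93 in Control 1 and -6.51 in Sham 3. It was -3.15 in 5-ASA 4 and -2.52 in Sham 4, both muscle-rich, so its sides overlapped. Six2 was well above background on 8 muscle-rich and 7 muscle-poor arrays, and its difference ran from 1.85 to 2.75 without 1 mouse. Colec10, a secreted collectin, differed by 1.87, from 2.14 in Sham 1 to -2.63 in Control 4. In the other direction Fcmr, the immunoglobulin M Fc receptor of B cells, differed by -3.16. Its sides overlapped over most of their range, with -7.58 to 2.22 on the muscle-rich side and -4.99 to 2.81 on the muscle-poor side. Fcmr was well above background on 6 muscle-rich and 7 muscle-poor arrays. The site along the colon from which each piece was taken is not given in the labels, and its part in these differences was not tested.

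Smooth muscle and neuron medians were smaller where the muscle average itself differed less between sides. This held with group set against group, slide against slide and row against row. The B cell and T cell medians did not follow it on the slides. Without Sham 1, Control 1, Control 4 and Control 6, the muscle average differed by 0.44 in place of 0.85, which the ranking fixes, and the median difference of the 40 smooth muscle genes outside the rule was 0.24 in place of 0.53. The neuron median was then 0.17 in place of 0.65, the glia median 0.16 in place of 0.57, the B cell median -0.94 in place of -1.53 and the T cell median -0.32 in place of -0.77. Within Sham (2 against 2 mice) the median of all smooth muscle genes was 0.67 and within Control (2 against 4) 0.76, and within 5-ASA (4 against 2) it was 0.18. The muscle average itself differed by 1.02, 1.08 and 0.38 between the sides of these groups. The neuron median was 0.60, 1.08 and 0.10 in the same order, and the B cell median -2.0, -1.74 and -0.28. On slide 1 the smooth muscle median was 0.40 and on slide 2 0.64, and in row 1 it was 0.69 and in row 2 0.40. The B cell median was -1.95 and -0.89 on the slides and -2.05 and -1.03 in the rows. The muscle average differed by 0.62 on slide 1 and 0.96 on slide 2, so the B cell median was wider where that gap was smaller. So was the T cell median, at -0.72 on slide 1 and -0.57 on slide 2. The smooth muscle medians here include the 3 rule genes, and the ranking itself set the sides, so the sign of that list is no test. Groups, slides and rows divide the same arrays in different ways, so a sign kept across them is not independent replication. The neuron and B cell medians kept their signs in each group, slide and row, at 0.10 and -0.28 within 5-ASA. Not all lists did, since the adipocyte median was 0.58 on slide 1 and -0.28 on slide 2.

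The last comparison was that of the labelled groups, without and with the muscle average as a term of the model. With limma and a Benjamini-Hochberg adjusted p under 0.05, Control differed from Sham in 14 of 24543 genes (0.057%; 1 higher, 0.00407%, and 13 lower, 0.053%), 5-ASA differed from Control in none (0%), with 1005 at an unadjusted p under 0.05, and 5-ASA differed from Sham in 14 (0.057%), again 1 higher (0.00407%) and 13 lower (0.053%). Of those 14, 13 and 12 were read within the outer 12 spot rows of the array, and no call was made for either comparison when these rows were left out. No smooth muscle, neuron, glia, B cell, T cell, neutrophil or proliferation gene of the lists passed in any of the 3 comparisons, so the values that follow are given without a call. Actg2 averaged 6.59 ± 0.56 (SD) over the 4 Sham mice, 6.22 ± 0.77 over the 6 Control mice and 6.60 ± 0.29 over the 6 5-ASA mice, and its difference was 0.37 (SE 0.31, limma adjusted p = 0.999) for 5-ASA against Control. Des differed by 0.49 (SE 0.35, limma adjusted p = 0.999) and Myh11 by 0.40 (SE 0.33, limma adjusted p = 0.999) in the same comparison. The 43 smooth muscle genes were higher in 5-ASA than in Control in 40 cases, with a median of 0.35, and lower in Control than in Sham in 36 cases, with a median of -0.27. The median over all genes was near 0 in both. These 2 comparisons share the Control mice.

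With the muscle average in the model, the smooth muscle median became 0.02 for 5-ASA against Control and 0.02 for Control against Sham, as the term itself brings about. The neuron median went from 0.33 to -0.01 and from -0.34 to -0.02. The B cell median went from -1.25 to -0.54 for 5-ASA against Control, with 12 of 12 genes lower in both models, and from -1.12 to -1.73 for Control against Sham, again with 12 of 12 lower. Bank1, a B cell scaffold protein, and Fcer2a, the low-affinity immunoglobulin E receptor CD23, had the smallest p values of that list for 5-ASA against Sham without the term, at -2.57 (SE 0.84) and -1.96 (SE 0.64), each with a limma adjusted p of 0.334. Proliferation genes were higher in 18 of 18 cases in Control than in Sham, with a median of 0.79 without and 0.68 with the term, and higher in 18 of 18 in 5-ASA than in Sham, at 1.00 and 1.01. The smallest limma adjusted p of a proliferation gene was 0.259. The residual SD of a gene had a median of 0.26 without and 0.24 with the term.

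**Figure D5:**
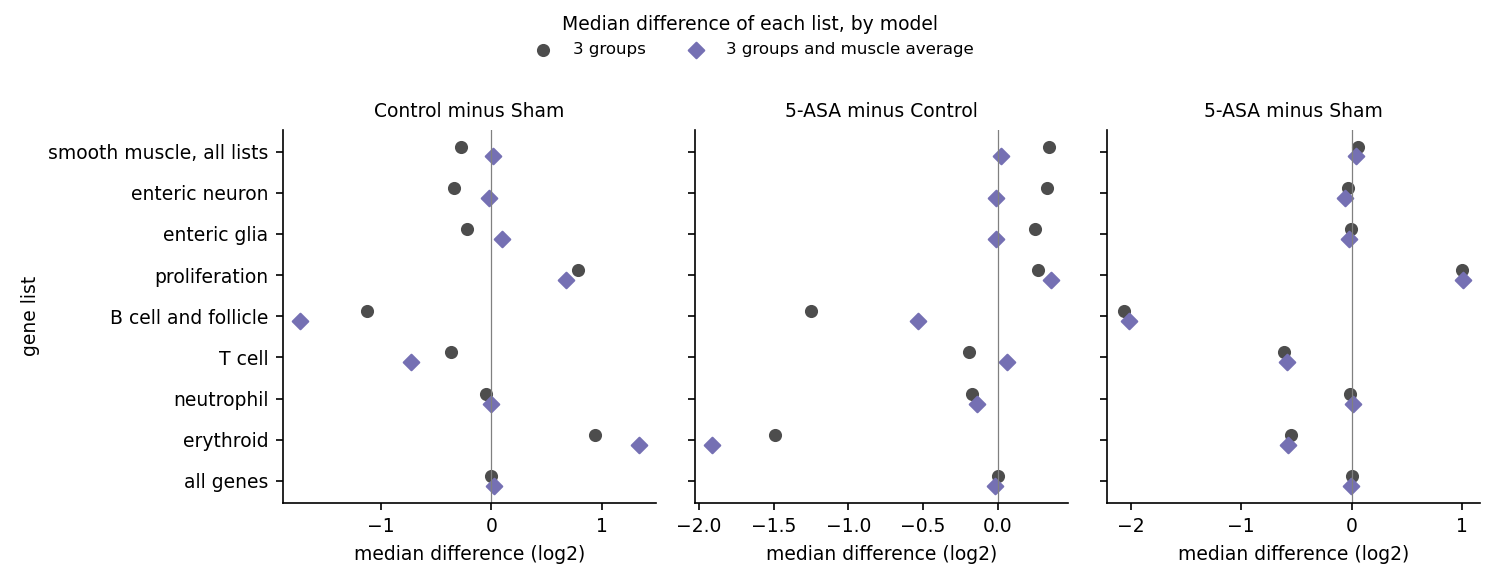
Each point is the median log2 difference of a gene list in a comparison of labelled groups, from the model of the 3 groups (circles) and from the model with the muscle average added (diamonds). Smooth muscle, neuron and glia medians move to about 0 with the term, and the B cell median for 5-ASA against Control moves from -1.25 to -0.54.

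The term changed the calls of 2 genes in 5-ASA against Control. These were Slc4a1, the band 3 anion exchanger of red blood cells, and Ppbp, a platelet chemokine precursor, which made up 2 of 24543 genes (0.00815%), both lower in 5-ASA; Ppbp is in no list and was named after its values were seen. Slc4a1 was -3.65 to 0.16 with a median of -2.46 in Control and -4.90 to -3.26 with a median of -4.17 in 5-ASA, so the groups overlapped by Control 6. Slc4a1 was well above background on all 6 Control arrays and on 4 of 6 5-ASA arrays, so part of its 5-ASA range lies near background. Its difference was -1.96 (SE 0.51, limma adjusted p = 0.999) without the term and -2.54 (SE 0.29, limma adjusted p = 0.00832) with it. Ppbp was well above background on 5 of 6 Control arrays and on no 5-ASA or Sham array, and it was at least 1.87-fold higher in Control than in 5-ASA and at least 2.94-fold higher than in Sham, where the dim arrays count at no less than their lowest signal above background. Its limma adjusted p for 5-ASA against Control, which rests on 5-ASA values that were all not well above background, was 0.390 without and 0.00832 with the term. Ppbp met the filter on dim probes through Control arrays alone, the group where it was high, so this p is not read as support for the difference. Without Control 1, the array with the highest Slc4a1 value (0.16), neither gene passed with the term (limma adjusted p = 0.0831 for Slc4a1 and 0.121 for Ppbp), and neither passed with the array row as a further covariate (0.229 and 0.179) or under normexp (0.0844 and 0.268). For Control against Sham the term left 13 calls (0.053%), 2 higher (0.00815%) and 11 lower (0.0448%), and for 5-ASA against Sham it left 15 (0.0611%), 1 higher (0.00407%) and 14 lower (0.057%). Slc4a1 was among the genes higher in Control than in Sham, at 2.0 (SE 0.32, limma adjusted p = 0.0378), but it passed in 4 of 25 alternatives, with limma adjusted p from 0.0188 to 0.373. It did not pass under normexp (0.0874), with the replicate block (0.327) or when any of 13 of the 16 mice was left out, and it was not tested with the filter for all 16 arrays.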

How the data were processed

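Expression was measured with 1-colour Agilent arrays in colon of 16 mice, from 0.2 ug RNA per mouse, per the labels. Agilent Feature Extraction 10.10.1.1 had removed background and spatial trends from each deposited intensity, with no scaling across arrays, per the file headers. For normexp, uncorrected pixel intensity of the spot (mean) and of its surroundings (median) was used, and the flags (score of 0 or 1) mark outlying, saturated and well-above-background spots, per the file headers. The deposited value table states no scale. It matched log2 intensity shifted by the 75th percentile with each probe's Sham median (4 arrays) set to 0 (r 0.992 to 0.998 per array), with column medians from -0.19 to 0.22, so the scale, centring and direction of the authors' log2 table were inferred from its values and used in 1 alternative.

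Each processed intensity was put on a log2 scale, and its value less the 75th percentile of its array was taken for 55681 non-control probes, without outlying spots. A probe had to be well above background on 4 or more of the 16 arrays, and the brightest such probe stood for its gene, which left 24543 genes. Of the probes, 27656 were named by accession through RefSeq's GRCm38.p6 table, used for names alone, and 28025 kept the file's name. No level of one probe was set against that of another. Mice are the replicates, and nothing beyond the labels says how they were housed or bred. Groups were compared by exact permutation (100000 permutations for correlations over 10 or more mice) and by limma 3.58.1 in R 4.3.3 over all genes, with 3 groups and no covariate, or with the muscle average added. The contrast of sides and limma were tested on simulated data.

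The members, the 32 gene lists with 321 genes, the tests and the alternatives were chosen with earlier results of these data known. Named were, per smooth muscle list, the genes with the widest and smallest difference; up to 4 genes of each other list; the genes without overlap; the 5 genes with the highest r; the list genes with the smallest p in the group comparisons; and promoters of rule genes and of smooth muscle genes with a CArG box. A few genes beyond this rule are named as examples of a list, and their values had been seen. The labels state no pairing of mice by replicate number, and the main models used none. Over 14 same-numbered pairs, the correlation of deviations from the group means ran from -0.21 to 0.61, and 8 exceeded 0.1. Its median was 0.13, against -0.06 for pairs with unlike numbers, so some likeness by replicate number is possible.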

Additional observations from a re-analysis of the deposited data

Results flagged for a closer look

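Among 69 sets of values screened for a mouse far from the rest of its group (the muscle average, the 3 rule genes and the scores of gene lists, in each of the 3 groups), 1 stood out. The T cell score of Sham 1 was -1.03, and the nearest of the other Sham mice was at 0.67, a gap of 0.87 of the range of the 4 mice. Sham 1 also had the highest muscle average of the 16 arrays, 5.39. Chance flags about 1 in 20 such sets.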

How the results depend on the processing

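The arrays kept their sides under normexp, quantile normalisation, median scaling, all probes of a gene and the deposited table. 5-ASA minus Sham in the muscle average was -0.000694 after quantile normalisation and -0.011 with the replicate number as a block, and it ran from -0.18 to 0.33 when 1 mouse was left out. Control minus Sham ran from -0.62 to -0.10, 5-ASA minus Control from 0.20 to 0.65, slide 1 minus slide 2 from 0.26 to 0.53 and row 1 minus row 2 from -0.058 to 0.26. For diarrhea, r missed the threshold in Control alone (-0.47), without Control 4 and Control 6 (-0.44), on slide 1 (-0.44) and in row 2 (-0.55), and ran from -0.75 to -0.53 without 1 mouse. These subsets, the inner 12 arrays and the scalings of the diarrhea relation were added after seeing the data.

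The 2 genes higher by 1 without overlap became 0 under normexp, with values centred on the labelled group and over the inner 12 arrays. They became 1 under quantile normalisation, median scaling, a filter for all 16 arrays and without the outer 12 spot rows, 11 at a minimum of 0.5, and 60 higher and 1 lower with the 6 highest against the 6 lowest arrays. Without 1 mouse they were 1 to 6 higher and 0 to 2 lower. The epithelium median was 0.0074 after quantile normalisation, 0.0015 with centred values and from -0.025 to 0.011 without 1 mouse. Tacr2 was -0.011 under median scaling, -0.017 for 6 against 6 arrays and from -0.015 to 0.060 without 1 mouse. With the filter for all 16 arrays, the neutrophil median was 0.050 and the Hox median 0.15. Ranked by the other smooth muscle genes, Aurkb was -0.30, Cfd -1.17, the colonocyte median -0.00506, goblet 0.056 and adipocyte -0.50. With 6 against 6 arrays, Aurkb was -0.25, Cfd -0.14 and goblet 0.017. Over the inner 12 arrays, the endothelium median was -0.010 and the adipocyte median -0.11. Cfd ran from -0.19 to 1.44 without 1 mouse.

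Limma counts for Control against Sham were 1 with the filter for all 16 arrays and 0 without the outer 12 rows, and with the muscle average 1 and 1. Those for 5-ASA against Control were 2953 (2905 higher in 5-ASA) with no filter on dim probes and 7 with the array row. With the muscle average they were 3362 with no filter, 4 with the row, and 0 under normexp, the filter for all 16 arrays, the replicate block and the average of the other smooth muscle genes. Those for 5-ASA against Sham were 2 with the filter for all 16 arrays, 0 without the outer rows and 7 with the row, and with the average 3, 0 and 3, and 3379 with no filter. Without 1 mouse the 3 counts ran from 10 to 15, 0 to 0 and 11 to 26, and with the average from 10 to 15, 0 to 2 and 11 to 164, the last without 5-ASA 4. The replicate block gave 10, 0 and 11 calls, and 9, 0 and 15 with the average. It ended the calls of Slc4a1 and Ppbp for 5-ASA against Control (limma adjusted p = 0.228 for both) and of Slc4a1 for Control against Sham (0.327), all with the average. The cause of these changes was not tested. Probes not well above background are the values that depth of signal limits.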
